A study of Homo sapiens with 4 samples.

Results

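The regions described here are the 2 kb upstream of 9667 gene starts, 1 per gene and all genes of the 4 deposited tables together. They are set against the first 2 kb downstream of the same starts. By their labels the deposited genes were preselected, as above 3 kb long and with a minimum gap of 2 kb. How the gap was measured is not stated, and all shares below are of these genes, not of gene starts in general. Each window is 10 bins of 200 bp with headers from -2000 to -200, and a gene that a table lacks was set to 0 there. All libraries came from RPE1, an immortalised line of human retinal pigment epithelium, here RPE1 iCas9 p53/puro-dKO CFAP20-KO, so all cells carried iCas9, were a p53/puro double knockout and lacked CFAP20. Replicates 1 and 2 of tagged-CFAP20 are of these cells expressing FLASH-BIO-CFAP20, a tagged CFAP20 that streptavidin beads capture, and replicates 1 and 2 of CFAP20-KO, the negative control, are of the cells without it. In FLASH-seq, ultraviolet light joins proteins to the RNA they touch, the tagged protein is pulled down, RNase I trims the RNA and the fragments are sequenced. The design text gives the question as whether CFAP20 binds RNA. The labels do not say how the tagged protein was driven, or whether a line is 1 clone or the replicates are separate cultures, so p-values reflect the spread of the libraries alone, possibly technical.

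Most human promoters are transcribed in both directions. RNA polymerase II moving away from the gene makes promoter upstream transcripts, also called PROMPTs or upstream antisense RNAs, which usually end early at polyadenylation signals and are degraded by the nuclear RNA exosome. Stable RNA also lies upstream of many starts, because a neighbouring gene starts head to head on the opposite strand, ends there, or because the gene has an earlier start of its own. The deposited signal is not split by strand, so an upstream antisense transcript, a neighbour's messenger RNA and an early start of the gene itself cannot be told apart by direction. The annotation of each window was therefore used to separate them.

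Most of the upstream windows with the highest signal lay over a neighbouring gene. The sequences below are examples of such windows and of windows with no annotated gene, chosen by unlike rules. The busiest 200-bp upstream bins of the 2 genes with most tagged-CFAP20 signal come first. They are followed by the busiest bins within 900 bp of the start of 3 protein-coding genes whose whole upstream window holds no GENCODE gene, chosen for overlaps in both tagged-CFAP20 libraries after the values were seen. All are from hg38, on the strand of the gene whose start they precede, with each CG dinucleotide in capitals.
ENSG00000246308 (chr11:10807197-10807396, plus strand): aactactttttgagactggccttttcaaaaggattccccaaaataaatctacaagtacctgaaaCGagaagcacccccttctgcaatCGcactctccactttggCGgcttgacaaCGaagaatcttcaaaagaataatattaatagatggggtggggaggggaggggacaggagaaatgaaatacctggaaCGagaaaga
DLG1-AS1 (chr3:197296352-197296551, plus strand): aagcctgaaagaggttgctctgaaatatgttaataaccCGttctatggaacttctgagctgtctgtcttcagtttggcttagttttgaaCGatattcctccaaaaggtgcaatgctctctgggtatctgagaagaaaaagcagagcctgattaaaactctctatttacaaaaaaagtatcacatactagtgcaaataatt
RNH1 (chr11:507401-507600, minus strand): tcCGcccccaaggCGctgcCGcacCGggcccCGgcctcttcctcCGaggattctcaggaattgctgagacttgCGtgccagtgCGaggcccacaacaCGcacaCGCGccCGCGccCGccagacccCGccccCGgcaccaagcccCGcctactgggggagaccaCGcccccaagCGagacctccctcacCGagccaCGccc
POLR3E (chr16:22297109-22297308, plus strand): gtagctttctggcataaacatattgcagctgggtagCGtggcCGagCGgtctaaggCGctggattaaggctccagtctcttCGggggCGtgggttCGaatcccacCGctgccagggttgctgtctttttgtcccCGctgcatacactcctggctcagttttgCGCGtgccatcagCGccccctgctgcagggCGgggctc
C1QTNF12 (chr1:1247223-1247422, minus strand): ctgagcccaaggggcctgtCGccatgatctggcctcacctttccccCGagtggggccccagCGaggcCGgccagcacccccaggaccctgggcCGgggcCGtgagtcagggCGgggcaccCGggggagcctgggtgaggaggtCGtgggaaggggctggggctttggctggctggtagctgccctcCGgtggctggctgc

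The ENSG00000246308 bin lies wholly in exons of EIF4G2, a translation initiation factor on the opposite strand, and held 14 and 11 read overlaps in tagged-CFAP20, against 0 and 1 in CFAP20-KO. Of the DLG1-AS1 bin, 126 bp are exonic for DLG1, a scaffold protein of cell junctions, and it held 8 and 17 overlaps in tagged-CFAP20, against 1 and 0 in CFAP20-KO. The RNH1 bin, upstream of the ribonuclease inhibitor, held 1 and 4 overlaps in tagged-CFAP20 and 0 in both CFAP20-KO libraries. That of POLR3E, a subunit of RNA polymerase III, held 2 and 2 in tagged-CFAP20, against 1 and 0 in CFAP20-KO, and the RefSeq tRNA gene TRL-AAG2-4 lies within it at chr16:22297140-22297221. That of C1QTNF12 held 1 and 2 in tagged-CFAP20 and 0 in both CFAP20-KO libraries. The 3 bins with no GENCODE gene, of which that of POLR3E holds the tRNA gene, had between 3 and 5 overlaps over both tagged-CFAP20 libraries, against 25 for each of the 2 exonic bins. As the 2 sets were chosen by unlike rules, these overlaps do not measure a contrast between them.

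Library depth differed strongly, which sets the precision of every value. A read overlap is the smallest step of a library's values, which was 12.9 and 13.9 signal units in tagged-CFAP20 and 83.0 and 276.88 in CFAP20-KO. The upstream windows held 3885 and 3052 overlaps in tagged-CFAP20, against 242 and 87 in CFAP20-KO. A read spanned 1.38 bins on average, so the signal of 3 reads, the upper limit that a count of 0 allows, was 53.3 and 57.8 in the tagged-CFAP20 libraries and 344 and 1148 in the CFAP20-KO libraries. Intervals and limits cover counting error only. Many differences from CFAP20-KO were therefore not detectable at this depth. CFAP20 itself is not among the genes analysed here, so the knockout was not checked. Of the fixed cell type markers, the retinal pigment epithelium genes OTX2 and MITF shared 7 and 8 downstream overlaps in tagged-CFAP20, against 0 and 0 in CFAP20-KO, while RPE65 and RLBP1, which define the mature tissue, were at 0. The epithelial and mesenchymal genes COL1A1 and LOX held 99 and 70 downstream overlaps in tagged-CFAP20, against 5 and 0 in CFAP20-KO, while COL1A2 had none in tagged-CFAP20. All 3 blood and both liver markers in the tables were at 0 up- and downstream in every library, and the neuronal marker SNAP25 had 1 upstream overlap and 2 downstream overlaps in tagged-CFAP20.

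The upstream windows carried less signal than the first 2 kb of the genes in every library. Their summed signal was 49935 and 42524.5 in tagged-CFAP20, against 20086 and 24089 in CFAP20-KO. The first 2 kb downstream, taken as the bins with headers 0 to 1800, held 189240 and 163591 in tagged-CFAP20, against 46480 and 84172 in CFAP20-KO. Downstream signal was thus 3.79 and 3.85 times upstream signal in tagged-CFAP20, and 2.31 and 3.49 times in CFAP20-KO. The mean log2 ratio of upstream to downstream over the 4 libraries was -1.72, lower upstream in 4 of 4, with p = 0.13 (2 of 16 sign assignments) in an exact two-sided sign-flip permutation test, the smallest p that 4 libraries allow.

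In such bulk pull-downs, fewer cells, less RNA per cell and less RNA captured cannot be told apart. CFAP20-KO, the negative control, has no tagged protein to capture. Upstream signal averaged 46230 ± 5240 in tagged-CFAP20 and 22087 ± 2830 in CFAP20-KO (SD, n = 2 each), the tagged-CFAP20 mean being 2.09 times the CFAP20-KO mean. The groups did not overlap, and the exact two-sided permutation test gave p = 0.333, the smallest p that 2 libraries against 2 allow. The direction depends on the scaling: after scaling all libraries to the same total within 10 kb of the starts, the log2 ratio was -0.15, below 0, against 1.07 on the deposited scale. Downstream signal averaged 176415 ± 18136 in tagged-CFAP20 and 65326 ± 26652 in CFAP20-KO (SD, n = 2 each), so that tagged-CFAP20 held 2.70 times the CFAP20-KO signal. The share of signal within 2 kb of the start that lay upstream, which no common factor per library can move, was 20.9% and 20.6% in tagged-CFAP20, against 30.2% and 22.3% in CFAP20-KO. The exact Clopper-Pearson 95% intervals ran from 20.2 to 21.6% and 19.9 to 21.4% in tagged-CFAP20, and from 26.5 to 34.1% and 17.6 to 27.6% in CFAP20-KO. Both tagged-CFAP20 shares were below both CFAP20-KO shares, with a mean difference of -5.46 percentage points, and the exact permutation test gave p = 0.333. The difference rested on CFAP20-KO replicate 1: without it the difference was -1.50 points, and without CFAP20-KO replicate 2 it was -9.42 points.

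In tagged-CFAP20 the signal was higher near the start than at the far end of the window and peaked just after the start. The bin at -2000 held 4190 and 3804 signal units over all genes, the bin at -400 held 6517 and 5768, and the bin at -200 held 6452 and 5657 in these libraries. The bin centred on the start held 15064 and 13655, and the bin at 200 was the highest with 27969 and 25192. In CFAP20-KO the bin at -200 held 2324 and 3599, and the bin at 200 held 5229 and 12460. In CFAP20-KO replicate 1 this was not the peak, as the bins at 1800 and 2800 held 5395 and 5644. Further out, at -5000, tagged-CFAP20 had 6003 and 5922 and CFAP20-KO had 3154 and 4153, each above the same library's value at -2000. Other genes may lie in that farther region.

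**Figure D1:**
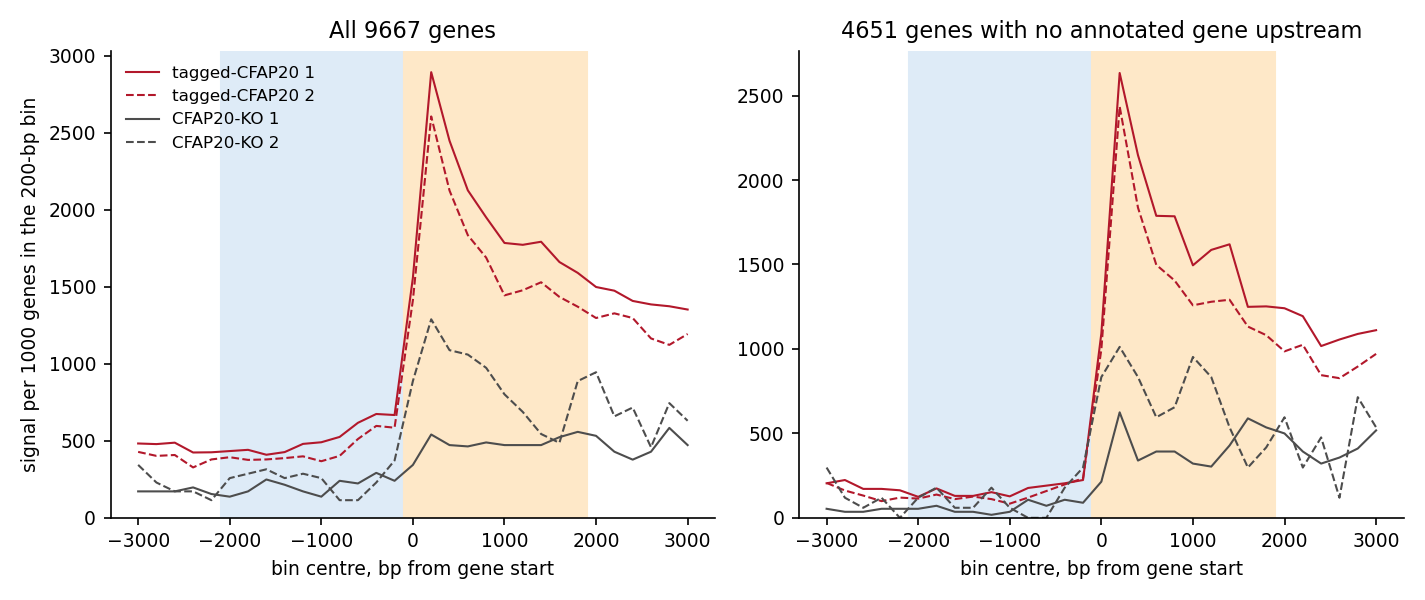
Signal per 1000 genes in each 200-bp bin (y axis) by distance of the bin centre from the gene start (x axis), for all genes (left) and for the 4651 genes with no annotated gene upstream (right), 1 line per library; the upstream window is shaded blue and the downstream one orange. In all 4 libraries the line steps up at the start and, in tagged-CFAP20, is highest at 200.

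Most upstream signal lay in windows with an annotated gene. GENCODE 44 places no gene in the upstream window of 4651 genes, or 48.1%, only an earlier part of the same gene in 2039, a gene on the opposite strand in 2058, one on the same strand in 612 and genes on both strands in 118, while 189 identifiers were not matched. Windows other than the 4651 held 84.8% and 84.8% of upstream overlaps in tagged-CFAP20, against 85.5% and 78.2% in CFAP20-KO. Windows with a neighbour on the opposite strand, head to head or overlapping, and none on the same strand were those of 21.3% of the genes. They held 48.5% and 48.6% of upstream overlaps in tagged-CFAP20, against 52.9% and 50.6% in CFAP20-KO. In some of these windows, that of INHA among them, the gene itself also reaches upstream. Their overlaps therefore cannot be assigned to the neighbour. Fewer than 1 in 4 upstream overlaps of any library thus lay in windows free of annotated genes.

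The upstream share of signal was lowest in tagged-CFAP20 where no gene is annotated upstream. There it was 8.93% and 8.93% in tagged-CFAP20, against 13.1% and 14.0% in CFAP20-KO. The intervals were 8.15 to 9.78% and 8.05 to 9.90% in tagged-CFAP20, and 8.56 to 18.5% and 8.04 to 22.8% in CFAP20-KO, so they overlapped. Where only the gene itself reaches upstream the share was 17.2% and 16.4% in tagged-CFAP20, against 19.2% and 12.5% in CFAP20-KO, and here the groups overlapped. With a gene on the opposite strand it was 31.4% and 30.7% in tagged-CFAP20, against 47.8% and 33.1% in CFAP20-KO. With a gene on the same strand it was 39.1% and 41.7% in tagged-CFAP20, against 49.1% and 50.0% in CFAP20-KO. In the gene-free class and with a gene on either strand, the tagged-CFAP20 shares were below the CFAP20-KO shares, with p = 0.333 in each exact permutation test, the smallest possible.

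**Figure D2:**
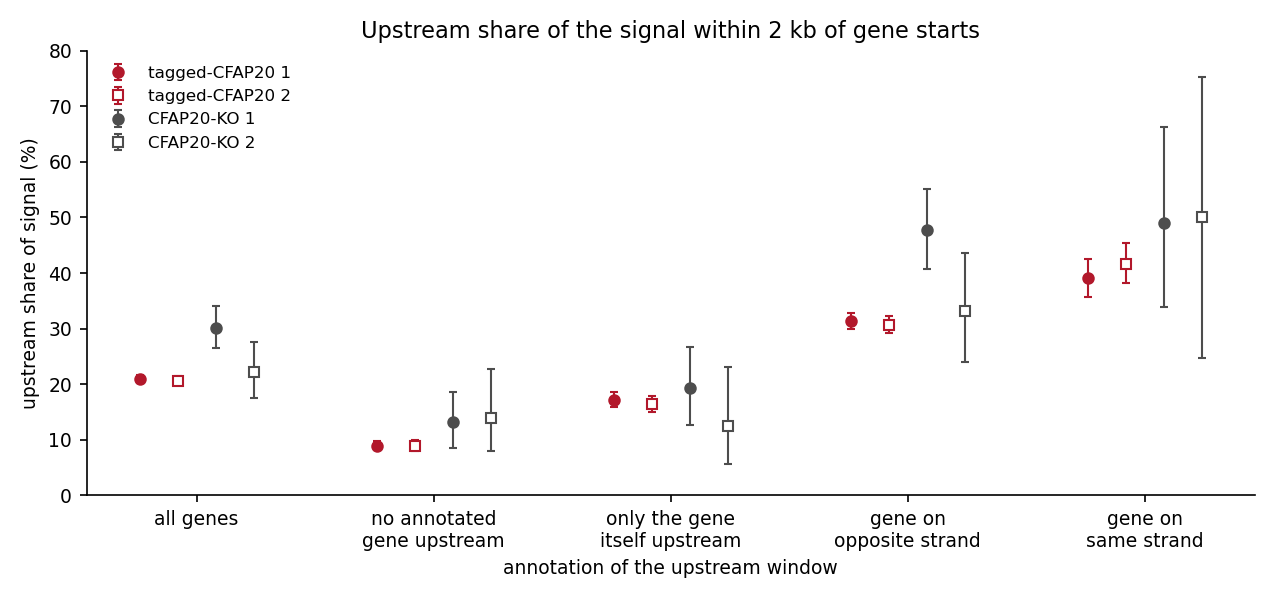
Upstream share of the signal within 2 kb of the gene start in percent (y axis), for all genes and for 4 classes of the upstream window (x axis). Each point is 1 library with its exact 95% counting interval; shares run from 8.93% with no annotated gene upstream to 50.0% with a gene on the same strand.

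The same held bin by bin. Bins with at least 100 bp of annotated exon were 6.51% of the upstream bins and held 34.0% and 33.0% of upstream overlaps in tagged-CFAP20, against 33.1% and 23.0% in CFAP20-KO. Bins wholly in introns were 32.8% of bins and held 34.7% and 35.5% in tagged-CFAP20, against 40.9% and 39.1% in CFAP20-KO. Bins with no annotated gene were 57.5% of bins and held 21.7% and 22.5% in tagged-CFAP20, against 19.4% and 25.3% in CFAP20-KO. Per bin, exonic bins had 13.8 and 13.0 times as many overlaps as bins with no gene in tagged-CFAP20, against 15.0 and 8.03 times in CFAP20-KO. Intronic bins had 2.80 and 2.76 times as many in tagged-CFAP20, against 3.69 and 2.71 times in CFAP20-KO. The order exon, intron, no gene was the same in all 4 libraries.

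Signal per 1000 exonic bins averaged 2465 ± 332 in tagged-CFAP20 and 968 ± 124 in CFAP20-KO, a ratio of tagged-CFAP20 to CFAP20-KO of 2.55 (SD, n = 2 each). For intronic bins the mean was 511.3 ± 49.8 in tagged-CFAP20 and 278 ± 26.7 in CFAP20-KO, a ratio of 1.84 (SD, n = 2 each). For bins with no gene it was 184 ± 16.2 in tagged-CFAP20 and 89.9 ± 27.9 in CFAP20-KO, a ratio of 2.04 (SD, n = 2 each). Each gave p = 0.333 in the exact permutation test. The share of upstream overlaps in bins with no gene averaged 22.1% in tagged-CFAP20 and 22.4% in CFAP20-KO, with overlapping groups and p = 1.0 in the exact permutation test.

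**Figure D3:**
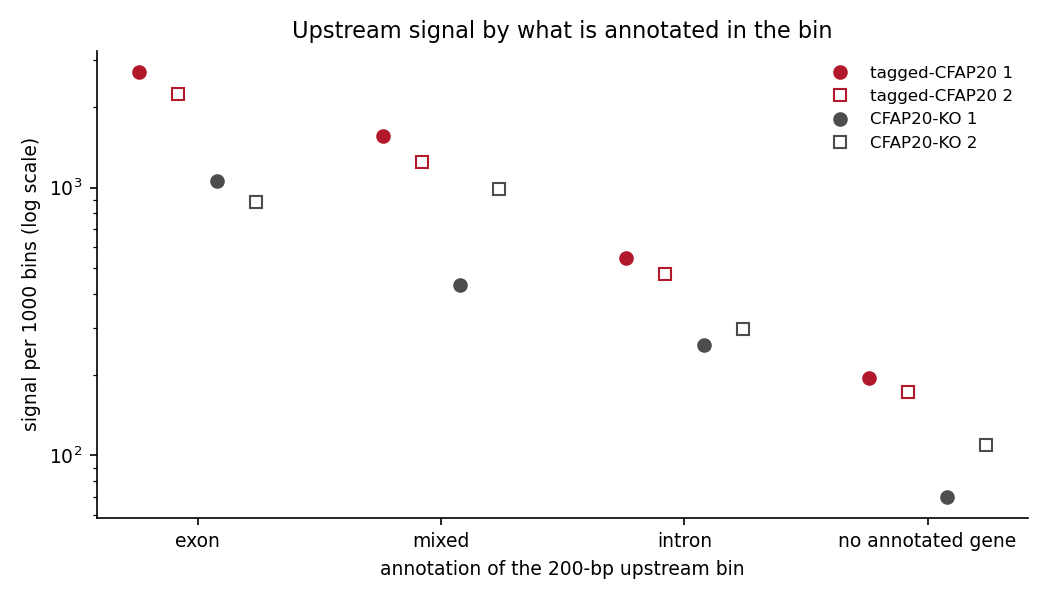
Signal per 1000 upstream bins on a log scale (y axis) by what GENCODE annotates in the bin (x axis), 1 point per library; mixed bins hold a gene edge or an exon part under 100 bp. Bins with no annotated gene are lowest in each library, and exonic bins are highest except in CFAP20-KO replicate 2, where mixed bins hold 991 signal units per 1000 bins and exonic bins 881.

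Upstream signal was concentrated in few genes. It was found at 1314 and 1088 starts in tagged-CFAP20, or 13.6% and 11.3% of genes, against 157 and 65 in CFAP20-KO. Downstream signal was found at 2846 and 2657 genes in tagged-CFAP20, against 343 and 207 in CFAP20-KO. Of the starts with upstream signal, 575 were shared by both tagged-CFAP20 libraries, which is 43.8% of those in replicate 1 and 52.8% of those in replicate 2. The 100 genes with most tagged-CFAP20 overlaps held 36.2% of them, and 681 of the 1827 genes with any had a single overlap. Of the 208 genes with upstream signal in a CFAP20-KO library, 158 had it in tagged-CFAP20 too. At least 20 overlaps over both tagged-CFAP20 libraries were reached by 45 genes, and 26 of these had upstream overlaps in CFAP20-KO. Of the 45, 23 have a gene on the opposite strand, 10 only an earlier part of themselves, 8 a gene on the same strand, and 2 no annotated gene upstream.

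The 10 genes with most tagged-CFAP20 upstream signal were chosen by that value, so their levels are a description. The window of ENSG00000246308, a long noncoding RNA that starts beside EIF4G2, held 553 and 585 signal units in tagged-CFAP20, against 0 and 277 in CFAP20-KO. DLG1-AS1, an antisense neighbour of DLG1, had 578 and 557 in tagged-CFAP20, against 83.0 and 277 in CFAP20-KO. ENSG00000279289, which lies on the same strand within LINC00472, had 514.1 and 613 in tagged-CFAP20, against 332 and 0 in CFAP20-KO. The choice favours tagged-CFAP20 values above those of CFAP20-KO, so their order is no support for a difference.

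Upstream of CEP95, which encodes a centrosomal protein, lies DDX5, an RNA helicase, with 1732 bp of the window exonic; it held 540 and 515.5 in tagged-CFAP20, against 332 and 0 in CFAP20-KO. FAM174C follows CIRBP, a cold-inducible RNA-binding protein, on the same strand and had 476 and 432 in tagged-CFAP20, against 0 and 277 in CFAP20-KO. HNRNPK-AS1 lies opposite HNRNPK, an RNA-binding protein of the nucleus, and had 399 and 474 in tagged-CFAP20, against 249 and 277 in CFAP20-KO. INHA, the inhibin alpha subunit, lies opposite OBSL1, a cytoskeletal adaptor, and had 411 and 321 in tagged-CFAP20, against 0 and 277 in CFAP20-KO. GENCODE starts INHA itself 3033 bp earlier, so the window lies within INHA too. Its 1639 exonic bp are those of either gene, and the signal of the 2 cannot be told apart. Single CFAP20-KO overlaps are worth 83.0 or 276.88, so the CFAP20-KO values of these windows rest on few reads.

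Of the other three, the groups overlapped in the first pair. ENSG00000232043, opposite the tyrosine phosphatase PTPN1, had 424 and 501.6 in tagged-CFAP20, against 249 and 831 in CFAP20-KO. TSC22D1-AS1, opposite the transcriptional regulator TSC22D1, had 334 and 362 in tagged-CFAP20, against 332 and 554 in CFAP20-KO. LINC00342, whose own exons fill the window, had 347 and 279 in tagged-CFAP20, against 249 and 0 in CFAP20-KO. In LINC00342 the lower tagged-CFAP20 value was just above the higher CFAP20-KO value.

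The 5 windows with most CFAP20-KO signal were in part the same ones. Besides ENSG00000232043 and TSC22D1-AS1 they were SNED1-AS1, MYH9-DT and IQCJ-SCHIP1-AS1, each opposite the gene it is named after. SNED1-AS1 had 257 and 69.7 in tagged-CFAP20, against 166 and 831 in CFAP20-KO. MYH9-DT, beside a non-muscle myosin heavy chain gene, had 206 and 293 in tagged-CFAP20, against 332 and 554 in CFAP20-KO. IQCJ-SCHIP1-AS1 had 12.9 and 27.9 in tagged-CFAP20, against 0 and 831 in CFAP20-KO, where 3 overlaps of 1 library made up the whole value. These 5 windows were chosen by their CFAP20-KO signal. The choice favours CFAP20-KO values above those of tagged-CFAP20, so their order is no support for a difference either.

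**Figure D4:**
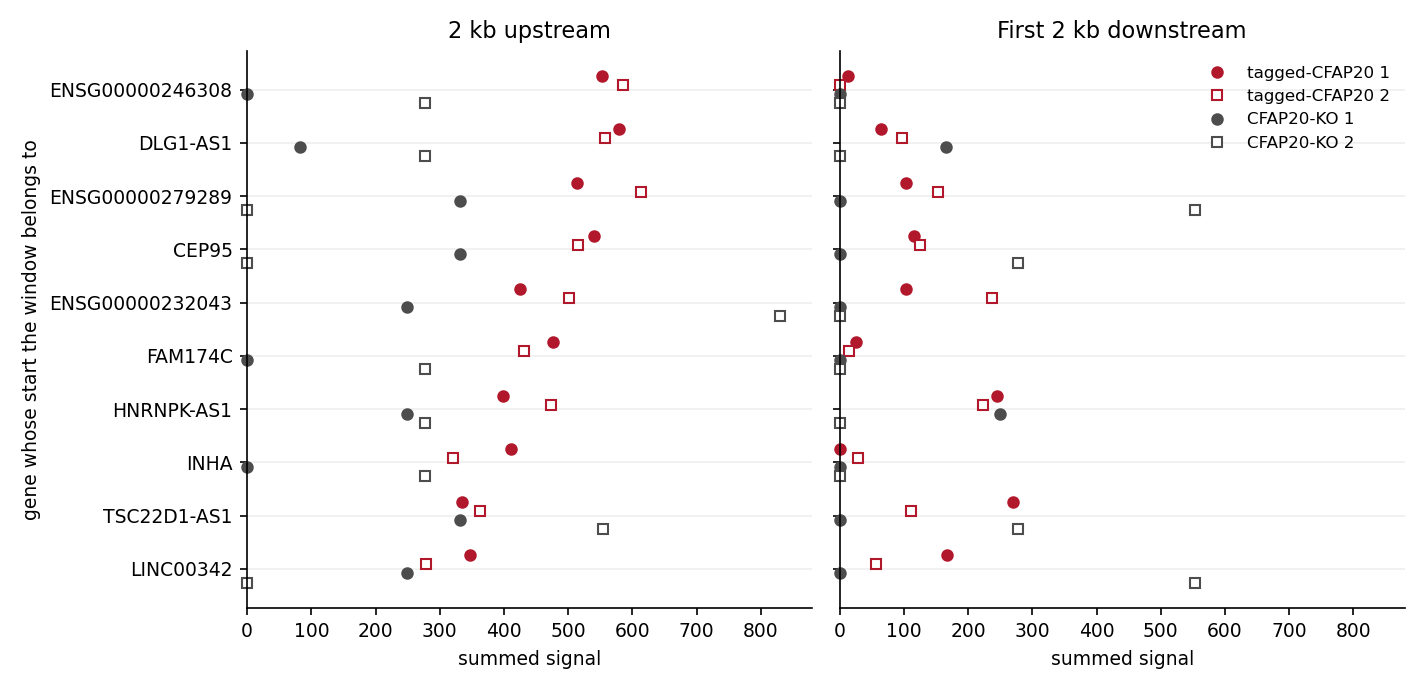
Summed signal (x axis) in the 2 kb upstream (left panel) and the first 2 kb downstream (right panel) of the 10 genes with most upstream signal in tagged-CFAP20 (rows), 1 point per library. Upstream points of tagged-CFAP20 lie between 279 and 613, and the downstream points of the same genes are mostly lower.

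Few windows had enough signal for a test per gene. On log2(signal + 100), a scale that understates changes of low genes, limma with Benjamini-Hochberg adjustment over the 16 genes with a mean upstream signal of at least 200 called none higher and none lower in tagged-CFAP20, so 0% of those tested. None had an unadjusted p under 0.05, the lowest adjusted p was 0.31, and the median log2 change was 0.51. An exact binomial test of pooled reads over 148 genes with at least 10 overlaps also called 0% in either direction, with 2 at an unadjusted p under 0.05. The limma count was unstable to the control libraries: 7 genes were called higher and 12 lower without CFAP20-KO replicate 1, and 8 higher and 1 lower without CFAP20-KO replicate 2.

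Downstream of the same starts, 75 genes were tested and 4, or 5.33%, were higher in tagged-CFAP20 and 0% lower, with 16 at an unadjusted p under 0.05. CCN1, a matricellular protein, had 2969 and 2619 signal units downstream in tagged-CFAP20, against 996 and 1108 in CFAP20-KO, with a log2 change of 1.33 ± 0.18 (SE) and a limma adjusted p of 0.0011. Its upstream window held 38.6 and 27.9 in tagged-CFAP20, against 0 and 0 in CFAP20-KO. PLK2, a polo-like kinase, had 2301 and 1923 downstream in tagged-CFAP20, against 498 and 554 in CFAP20-KO, a log2 change of 1.82 ± 0.31 (SE, limma adjusted p = 0.0048), and no upstream overlap in any library. The splicing factors SRSF6 and RBM39 changed by 3.26 ± 0.77 and 3.26 ± 0.83 on the log2 scale (SE, limma adjusted p = 0.039 and 0.046). SRSF6 had 2172 and 1310 downstream in tagged-CFAP20, against 249 and 0 in CFAP20-KO, and no upstream overlap in any library. Without tagged-CFAP20 replicate 1 only CCN1 of the 4 stayed called, and likewise without replicate 2, while 34 genes were called higher and 59 lower without CFAP20-KO replicate 1 and 34 higher and 0 lower without CFAP20-KO replicate 2. After scaling to the same window total the log2 changes were 0.18 for CCN1, 0.72 for PLK2, 2.44 for SRSF6 and 2.57 for RBM39, with limma adjusted p of 0.82, 0.52, 0.0059 and 0.067, so SRSF6 alone of the 4 stayed under 0.05. None of the 4 was called under the replicate block or without the trend.

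The ratio of upstream to downstream signal was tested in 27 genes, of which 0% were higher and 2, or 7.41%, lower in tagged-CFAP20, with 5 at an unadjusted p under 0.05. They were PLK2, with a log2 change of -1.82 ± 0.19 (SE, limma adjusted p = 0.027), and CCN1, with -0.92 ± 0.12 (SE, adjusted p = 0.032). As PLK2 had no upstream signal, its ratio moved by its downstream signal and the pseudocount alone. With a pseudocount of 10 the CCN1 change reversed to 0.70 (adjusted p = 0.21) and no gene was called. No gene was called without tagged-CFAP20 replicate 1 or without tagged-CFAP20 replicate 2, while 10 were higher and 14 lower without CFAP20-KO replicate 1, and 1 higher and 17 lower without CFAP20-KO replicate 2. The median log2 change over the 27 genes was -0.92, against -1.17 with a pseudocount of 10 and -0.60 with 300, so its size depended on the pseudocount. As for PLK2, higher downstream signal alone can lower it, so it does not measure a change of upstream signal. Fisher's exact test of pooled reads over 1021 genes called none, with 2 at an unadjusted p under 0.05.

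Within tagged-CFAP20, 77 genes had at least 20 overlaps up- and downstream together in each library, and upstream exceeded downstream in 18 of them. A neighbour on either strand was annotated upstream of 13 of these 18, only an earlier part of the gene itself in 4, and no gene in 1. Of all 77, a neighbour was annotated upstream of 33 and no gene upstream of 22. The highest ratios of pooled overlaps belonged to ENSG00000246308 at 85.0, INHA at 27.5, FAM174C at 22.7 and DLG1-AS1 at 7.08. JRKL, whose window is filled by exons of its head-to-head neighbour CCDC82, had 296 and 209 upstream in tagged-CFAP20, against 249 and 0 in CFAP20-KO, and a ratio of 2.53. At the other end, 27 of the 77 genes had no tagged-CFAP20 upstream overlap, and 15 of these have no annotated gene upstream. Those with most downstream overlaps were PLK2, SRSF6, COL1A1 of fibrillar collagen, the secreted glycoprotein STC2 and the translation initiation factor EIF1, each at 0 upstream in all 4 libraries beside 46 to 179 downstream overlaps per tagged-CFAP20 library. The deposited start of STC2 lies 1056 bp upstream of its GENCODE start, so its upstream window is farther from that start.

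The 4651 windows with no annotated gene, called gene-free here by GENCODE alone, held 591 and 465 overlaps in tagged-CFAP20, against 35 and 19 in CFAP20-KO. Summed signal was 7038 ± 790 in tagged-CFAP20 and 4083 ± 1666 in CFAP20-KO, a ratio of tagged-CFAP20 to CFAP20-KO of 1.72 (SD, n = 2 each, exact permutation p = 0.333). For the downstream signal of these genes the ratio was 2.78. Signal appeared at 340 and 252 of these starts in tagged-CFAP20, against 26 and 14 in CFAP20-KO. Only 72 starts were shared by both tagged-CFAP20 libraries, 21.2% of those in replicate 1 and 28.6% of those in replicate 2, and 263 of the 520 with any tagged-CFAP20 signal had a single overlap. RefSeq places a gene in 1000 of these windows, in bins with 24.4% and 23.7% of their overlaps in tagged-CFAP20, against 25.7% and 36.8% in CFAP20-KO. Genes for small structural RNAs lay in 8 of the windows and held 2 and 3 overlaps in tagged-CFAP20, against 1 and 0 in CFAP20-KO.

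Within these windows the 5 near bins, -1000 to -200, held 334 and 265 overlaps in tagged-CFAP20 and the 5 far bins, -2000 to -1200, held 257 and 200. In CFAP20-KO the near bins held 23 and 9 and the far bins 12 and 10. The near bins thus held 1.30 and 1.33 times as many as the far bins in tagged-CFAP20, against 1.92 and 0.90 times in CFAP20-KO, higher in 3 of 4 libraries, with p = 0.25 in the exact sign-flip permutation test. The bin at -200 held 81 and 78 overlaps in tagged-CFAP20, against 5 and 5 in CFAP20-KO, beside 45 and 38 in tagged-CFAP20 and 3 and 2 in CFAP20-KO at -2000. Without the bin at -200 the mean log2 ratio of near to far, per bin, was 0.11, against 0.39 with it.

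Upstream signal was higher where downstream signal was higher, but by less. Genes of this class with 0 downstream overlaps in tagged-CFAP20 had 54.0 and 32.2 upstream overlaps per 1000 genes there. Those with 1 to 4 had 219 and 175, those with 5 to 19 had 318 and 266, and the 90 genes with 20 or more had 678 and 767. Downstream overlaps per 1000 genes over the last 3 groups were 1186 and 952, 5046 and 4024, and 25333 and 19489. The upstream share accordingly was 15.6% and 15.6%, then 5.93% and 6.20%, and 2.61% and 3.78%. Depth and level are shared by both windows of a gene, and the groups were set by the downstream value, so this is a description of the tagged-CFAP20 libraries.

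**Figure D5:**
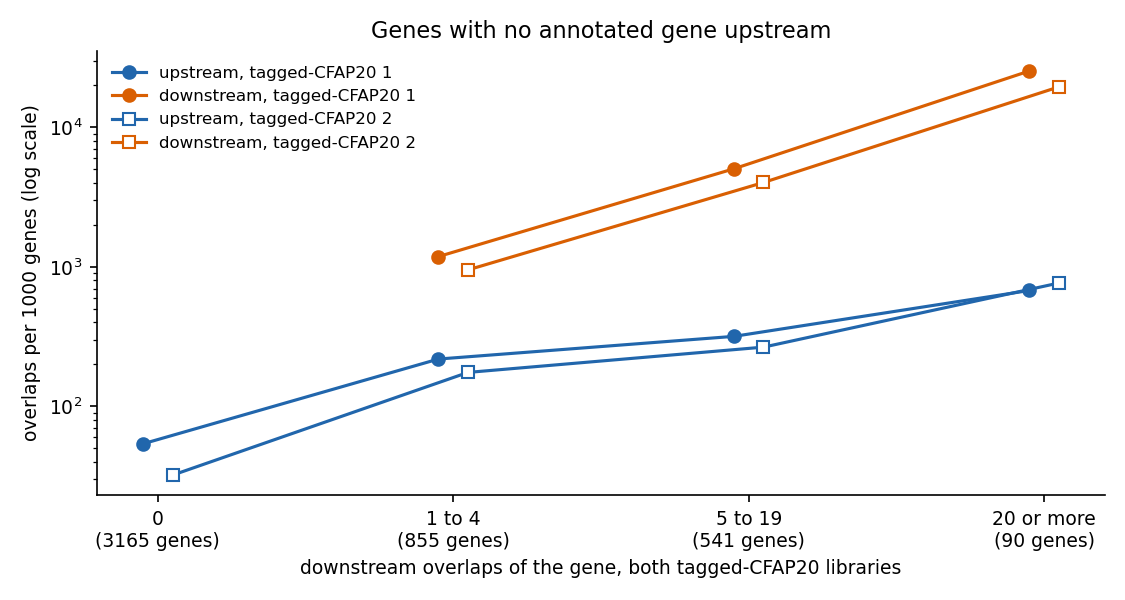
Overlaps per 1000 genes on a log scale (y axis) upstream (blue) and downstream (orange) of genes with no annotated gene upstream, by their downstream overlaps over both tagged-CFAP20 libraries (x axis), 1 line per library. Upstream overlaps climb from 54.0 and 32.2 to 678 and 767 per 1000 genes while downstream overlaps climb to 25333 and 19489.

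Signal of the gene-free windows was also described by gene type and base composition. The 3060 protein-coding genes had 130 and 102 upstream overlaps per 1000 genes in tagged-CFAP20, against 5.88 and 5.56 in CFAP20-KO, and the 1533 long noncoding genes had 115 and 88.1 in tagged-CFAP20, against 9.78 and 1.30 in CFAP20-KO. Downstream the protein-coding genes had 1882 and 1484 in tagged-CFAP20 and the long noncoding genes 146 and 123, so the upstream share was 6.45% and 6.41% for the first and 44.1% and 41.8% for the second. The near bins held 1.58 and 1.64 times as many overlaps as the far bins in tagged-CFAP20 for protein-coding genes, and 0.79 and 0.88 times for long noncoding genes, a difference that was not tested. CpG-rich starts, with an observed to expected CpG ratio of at least 0.6 and at least 50% G and C over 1000 bp around the start, had 181 and 152 upstream overlaps per 1000 genes in tagged-CFAP20, against 9.76 and 6.89 in CFAP20-KO. CpG-poor starts had 94.8 and 69.1 in tagged-CFAP20, against 6.19 and 2.41 in CFAP20-KO. The upstream share ran the other way: it was 6.04% and 6.39% in tagged-CFAP20, against 8.13% and 12% in CFAP20-KO, for CpG-rich starts, and 19.7% and 18.7% in tagged-CFAP20, against 31.0% and 19.4% in CFAP20-KO, for CpG-poor starts. Downstream, CpG-rich starts had 2814 and 2222 overlaps per 1000 genes in tagged-CFAP20 and CpG-poor starts 387 and 301. Of the 1741 CpG-rich starts 1665 were protein coding, against 1395 of the 2910 CpG-poor ones. Among protein-coding genes alone the upstream share in tagged-CFAP20 was 5.66% and 5.90% for CpG-rich starts and 10.5% and 9.09% for CpG-poor ones. In CFAP20-KO it was 6.86% and 11.2% for the first and 10.3% and 22.2% for the second. Among the 72 starts with upstream signal in both tagged-CFAP20 libraries 59.7% were CpG-rich, against 35.3% of the 4113 with no upstream overlap in any library and 37.7% of all genes. The printed bins of RNH1, POLR3E and C1QTNF12 hold between 10 and 21 CG dinucleotides, those of the tRNA gene in the POLR3E bin included, beside 5 and 2 in the exonic bins of EIF4G2 and DLG1. The former lie at -200, -200 and -600 by choice and the exonic ones at -2000 and -1800, so distance from the start differs too.

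The motifs AATAAA and GGTAAG were counted in the 1000 bp upstream, from -1100 to -101, read on the antisense strand, and in the 1000 bp from 100 to 1099 downstream, read on the gene strand. AATAAA, the core polyadenylation signal, was in 48.5% of upstream antisense stretches of the 4651 genes and in 32.6% of downstream stretches. GGTAAG, the core of a 5' splice site, was in 12.4% of upstream antisense stretches and in 26.0% of downstream ones. On the gene strand of the same upstream bases AATAAA was in 50.7% and GGTAAG in 13.6%, so over the 4651 genes the upstream values were near each other on both strands. Among the 72 starts with upstream signal in both tagged-CFAP20 libraries, AATAAA was in 33.3% of upstream antisense stretches, 47.2% of the same bases on the gene strand and 15.3% of downstream stretches. For GGTAAG these shares were 9.72%, 15.3% and 13.9%. Among these 72, both motifs were thus less frequent upstream on the antisense than on the gene strand, but by small counts. AATAAA was in 24 against 34 stretches and GGTAAG in 7 against 11, and the 72 were chosen by their signal. A match is only a match of letters in this window. Neither sequence contains the other, and the values are descriptions with no test.

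Single gene-free windows held few reads. By tagged-CFAP20 overlaps the highest was ENSG00000225156, a long noncoding RNA, with 206 and 195 signal units in tagged-CFAP20, against 166 and 277 in CFAP20-KO. ENSG00000279821 had 129 and 153 in tagged-CFAP20, against 166 and 0 in CFAP20-KO, with 18 of its 21 tagged-CFAP20 overlaps in the 3 bins nearest the start. LINC03061 had 77.1 and 153 in tagged-CFAP20, against 166 and 0 in CFAP20-KO. Groups overlapped in all 3. Among protein-coding genes RNH1 had 90.0 and 125 in tagged-CFAP20, ZNF37A, a zinc finger gene, had 64.3 and 112, and PGRMC2, a membrane haem-binding protein, had 51.4 and 97.5, with 0 in CFAP20-KO for each. These values are under the 265 units that 3 reads pooled over CFAP20-KO are worth, so the absence from CFAP20-KO was not a detectable difference at this depth. These genes were named after their values were seen.

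Of the 6 listed genes with studied promoter upstream transcripts, RBM39, EXT1 and IFNAR1 are in the tables. Upstream signal in tagged-CFAP20 was found for 2 of these 3, with a median of 2 overlaps over both libraries, beside 18.9% of all genes and a median of 0. RBM39 had 90.0 and 97.5 upstream in tagged-CFAP20, against 83.0 and 0 in CFAP20-KO, beside 1157 and 1240 downstream in tagged-CFAP20, against 83.0 and 0 in CFAP20-KO. Of its window 1466 bp are exonic, for RBM39 itself or for ENSG00000289872 on the opposite strand, and the pooled upstream ratio was 1.47 with a 95% counting interval of 0.15 to 45.4. Its tagged-CFAP20 upstream overlaps were 13 in the bin at -200 and 1 in the bin at -400. GENCODE starts RBM39 361 bp earlier, so the gene itself reaches both bins. EXT1, a heparan sulfate polymerase, had no upstream overlap in any library, beside 373 and 446 downstream in tagged-CFAP20, against 83.0 and 0 in CFAP20-KO. IFNAR1, a subunit of the interferon receptor, had 0 and 27.9 upstream in tagged-CFAP20, against 0 and 0 in CFAP20-KO, and was at 0 downstream in all 4 libraries.

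The genes whose products make or remove such transcripts were also read at their own starts, where 1 of 2, 3 of 6 and 0 of 5 measured members of 3 lists had upstream signal in tagged-CFAP20, beside the 18.9% of all genes. Of 18 genes of the nuclear exosome and its adaptors, 2 are in the tables: EXOSC2, an exosome subunit, had 1 and 0 upstream overlaps in tagged-CFAP20 and C1D, an exosome cofactor, had none, and both were at 0 in CFAP20-KO. Of 29 Integrator, cap-binding and early termination genes, 6 are in the tables, and 3 of these had 1 upstream overlap each over tagged-CFAP20, among them INTS1 and INTS10, Integrator subunits, with 0 and 1 each, and none had any in CFAP20-KO. Of 23 RNA polymerase II and pausing genes, the 5 in the tables, POLR2G and SUPT5H among them, had no upstream overlap in any library. The median member had 0.5, 0.5 and 0 tagged-CFAP20 upstream overlaps in these lists and 5.5, 6.5 and 2 downstream overlaps, beside 0 and 0 over all 9667 genes. None of these 3 lists had a member with enough signal for the limma tests.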

How the data were processed

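FLASH-seq signal was taken from 4 deposited tables, 1 per library, with groups from the titles. UMI-tools 1.0.0, HOMER 4.8.2, Bowtie2 2.3.5, R 4.0.5 and hg38 are listed, per the submitters' processing notes, without their roles. How the signal was normalized is not given in the sources used here. Deposited signal is coverage per 200-bp bin, 1 gene per line, and the deposited columns of unit other give position, strand and length. All values (100.0%, tolerance 0.01) were whole multiples of 1 step per library, taken as 1 read overlapping a bin. A read fills 1.38 bins on average, so overlaps divided by this stand for reads in intervals and exact tests. A header marks the bin's centre: bins of opposite-strand neighbours matched best without a shift (r = 0.998 over 1127 bin pairs), so the upstream window covers -2100 to -101 and the bin 0 straddles the start. Only bins within 10 kb were read, 900 further bins per table were not used, and 1 column matched no sample and was not used.

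GENCODE 44 matched 9478 of 9667 identifiers, and 56.6% of matched starts lie at an annotated transcript start and 89.7% within 100 bp. RefSeq genes (GRCh38.p14) were a second annotation. Per-gene tests used limma 3.58.1 in R 4.3.3 (trend) on log2(signal + 100) with both groups in 1 fit. They required a mean signal of at least 200 (400 for the ratio) and used a Benjamini-Hochberg threshold of 0.05. The fit was also run on simulated data, with unchanged genes at the real depth and changed genes at a far higher one. Detection of changes at the real depth was thus not checked. Group and window totals were tested by exact permutation (scipy 1.17.1). Named genes were the 10 with most tagged-CFAP20 and 5 with most CFAP20-KO upstream signal, up to 5 per direction past each threshold, the 10 highest and 5 lowest upstream to downstream ratios, and list members. The members, lists and tests were chosen with earlier results of these data known. Alternatives, tried 1 at a time, were left-out libraries, other bins, pseudocounts, filters, scalings, annotations and tests; those on RefSeq, gene-free or non-overlapping windows, downstream bins and near bins were added after seeing the data.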

Additional observations from a re-analysis of the deposited data

How the results depend on the processing

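The upstream signal, the upstream share and the upstream to downstream ratio kept their direction under every alternative run (the permutation tests cannot pass the threshold at this size), except that scaling to the same total within 10 kb turned the log2 ratio of upstream signal to -0.15, against 1.07 on the deposited scale. Leaving out each library moved that ratio between 0.94 and 1.20, the share difference between -9.42 and -1.50 points, the log2 ratio of upstream to downstream between -1.89 and -1.65, and that of near to far in gene-free windows between 0.21 and 0.57. Counting each bin once raised the log2 ratio of upstream signal to 4.01, since it takes out the library's step. The share difference was -4.17 points in the nearest 1 kb and -2.21 points with bins counted once, and the groups overlapped in both. Counts of genes called depended on the setting, and the cause was not tested beyond the number of genes each setting tests. Leaving out each library gave 0 to 19 genes called upstream, 1 to 93 downstream and 0 to 24 on the ratio; a lone library was there assumed to vary like the other group. Keeping genes above 0 in at least 2 libraries gave 314, 1232 and 400 calls; upstream, 575 genes were above 0 in both tagged-CFAP20 libraries and 14 in both CFAP20-KO libraries, so genes passed mostly through tagged-CFAP20 and the direction of the upstream calls is not independent of the filter. No filter gave 727 downstream and 303 on the ratio; for upstream signal it could not be fitted. Of downstream genes, 0 were called under the replicate block or without the trend, 8 with a pseudocount of 10, 7 with 300 and 8 by the exact binomial test. On the ratio, 0 were called under the replicate block, with a pseudocount of 10, without the trend or by Fisher's exact test. CCN1's ratio reversed to 0.70 with a pseudocount of 10. Over the downstream and ratio fits of CCN1, PLK2, SRSF6 and RBM39, 55 alternatives left the gene on the same side of the threshold, 30 lost a call and 6 gained one. Same-numbered libraries did not deviate together (r = 0.066 over 75 genes). With only 560 and 304 downstream overlaps in the CFAP20-KO libraries, this cannot exclude a pairing. The block called 0 genes upstream. Scaling to the same window total called 0 genes upstream and 3 downstream.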
